A study of Mus musculus with 12 samples.

Results

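The comparison described here is the response of EZH2-inhibited mouse oligodendrocyte precursor cells (OPCs) to interferon-γ (IFN-γ). Its members were 6 of the 12 libraries in the series, chosen by their labels: 3 libraries from cells given an EZH2 inhibitor and then IFN-γ (IFN-γ + EZH2i) and 3 libraries from cells given the inhibitor alone (EZH2i). Both groups were primary Sox10GFP+ OPCs from P4-P6 pups, grown in medium with the mitogens PDGF-AA and bFGF, and both carried 1.5 µM EPZ011989 for 4 days, replaced every 48 h. The IFN-γ + EZH2i cultures then had 100 ng/ml IFN-γ for 6 h together with fresh inhibitor. The other 6 libraries were cultures without inhibitor, with IFN-γ (3 libraries, IFN-γ) or without it (3 libraries, Ctr). They serve as a reference for the same response, and they also entered the filter, normalization and estimate of spread behind the calls. The study took up how chromatin in oligodendrocyte lineage cells relates to their immune gene expression in experimental autoimmune encephalomyelitis (EAE), and the samples carry an EAE tag although the protocol describes cultured pup cells with no immunization. In the mouse line that the study describes, Cre driven by Sox10 switches on an EGFP reporter, so GFP marks the Sox10 lineage. Cells were isolated either by sorting for GFP or with CD140a (PDGFRA) beads, the labels do not say which library came from which, several brains were pooled per experiment, and the 3 replicates came from different litters.

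IFN-γ binds a receptor of IFNGR1 and IFNGR2 chains, whose kinases JAK1 and JAK2 phosphorylate STAT transcription factors. Phosphorylated STAT dimers bind GAS elements, and among the genes first induced are the interferon regulatory factors, which bind ISRE elements in a second round of targets. EZH2 is the main methyltransferase of Polycomb repressive complex 2 (PRC2), which places H3K27me3, a mark of silent genes. OPCs divide and give rise to myelinating oligodendrocytes, and in inflamed tissue they can take up antigen-presentation genes.

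Total RNA had been sequenced as stranded libraries, and the estimated counts of each transcript were summed per gene. Totals ran from 24820529 to 61416854 counts over the 6 libraries. Levels are given as CPM (counts scaled to the size and composition of each library), in the order of replicates 1, 2 and 3, and levels compared between genes as TPM, which also allow for transcript length. Fold changes and p-values come from the quasi-likelihood test of edgeR, the p-values were adjusted after Benjamini and Hochberg over all 18995 genes tested, and a gene was called at an adjusted p under 0.05. Of the OPC marker list, 15 of 15 members were tested, and their summed level was 2244 to 2464 TPM in the EZH2i libraries. Microglial markers summed to 0.50 to 0.70 TPM in EZH2i and 0.54 to 0.70 TPM in IFN-γ + EZH2i, and T and NK cell markers to at most 0.06 TPM in any of the 6 libraries. Astrocyte markers were present in both groups, at 545 to 745 TPM in EZH2i and 461 to 673 TPM in IFN-γ + EZH2i. In bulk RNA, fewer cells of a type and less RNA per cell cannot be told apart.

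Some promoters of strongly induced genes hold the letters of one or both elements, and a few that do are shown because the results below turn on these genes. RefSeq promoter windows (GRCm38.p6, 250 bases before to 50 after a start) were searched on both strands for GAS as TTCNNNGAA, which reads the same on both strands, and for ISRE as GAAA, any 2 bases and GAAA, of which the second GAAA may be the first of another match. Each line gives the stretch around the matches upstream of the start, 5′ to 3′ in the direction of the gene, with every matched base in capitals.
Irf1, chr11:53769904-53769952, plus strand, a GAS: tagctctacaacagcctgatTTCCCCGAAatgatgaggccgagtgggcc
Irf8, chr8:120736167-120736233, plus strand, a pair of GAS: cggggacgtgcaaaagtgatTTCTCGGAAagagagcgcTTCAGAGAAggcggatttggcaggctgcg
Psmb8, chr17:34198078-34198126, plus strand, a GAS: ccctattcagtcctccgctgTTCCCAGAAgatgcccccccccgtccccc
Igtp, chr11:58199491-58199551, plus strand, a GAS then an ISRE: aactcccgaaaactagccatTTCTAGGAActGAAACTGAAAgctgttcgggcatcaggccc
Irgm2, chr11:58214882-58214942, plus strand, a GAS then an ISRE: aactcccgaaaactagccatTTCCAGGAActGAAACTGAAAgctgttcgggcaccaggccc
Tgtp1, chr11:48992294-48992354, minus strand, a GAS then an ISRE: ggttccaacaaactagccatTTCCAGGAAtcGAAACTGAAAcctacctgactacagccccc
Gbp2, chr3:142620584-142620633, plus strand, an ISRE on the opposite strand: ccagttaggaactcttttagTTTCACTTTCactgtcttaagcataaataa
Ifit1, chr19:34640765-34640833, plus strand, a pair of ISREs on the opposite strand: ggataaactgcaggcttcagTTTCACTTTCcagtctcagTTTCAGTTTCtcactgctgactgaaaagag
Isg15, chr4:156200855-156200916, minus strand, 3 overlapping ISREs: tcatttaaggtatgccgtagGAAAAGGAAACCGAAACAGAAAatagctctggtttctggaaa
Socs1, chr16:10785584-10785639, minus strand, a pair of overlapping ISREs: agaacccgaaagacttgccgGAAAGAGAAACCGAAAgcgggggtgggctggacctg
Igtp, Irgm2 and Tgtp1, which encode immunity-related GTPases, each had the ISRE 2 bases after the GAS.

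After 6 h of IFN-γ, EZH2i-treated OPCs had a strongly altered transcriptome, in which the rises were larger and more numerous than the falls. Of the 18995 genes tested, 1120 were higher in IFN-γ + EZH2i (5.90% of genes tested) and 413 were lower (2.17%), 1533 in all (8.07%). Among the genes that rose, the median log2 fold change was 1.84, 828 rose more than 2-fold, 248 more than 16-fold and 54 more than 256-fold. For 91 of them the EZH2i libraries held at most 3 counts each, so the fitted fold depends on the prior count. Set at the bound that 3 counts per library allow, 200 rose more than 16-fold and 34 more than 256-fold, with a median of 1.83. The genes that fell moved less: their median was 0.90 log2 units, 175 fell more than 2-fold and 2 more than 16-fold, the latter 0 at that bound. All 1533 called genes had no overlap between the groups, as did 21.5% of all genes tested. Protein-coding genes made up 995 of the 1120 and 372 of the 413. The genes that rose took 3.11% ± 0.046 (SD, n = 3) of all counts in EZH2i and 10.2% ± 0.51 in IFN-γ + EZH2i. The count of falling genes rested on single libraries: it was 237 without EZH2i replicate 1, 227 without EZH2i replicate 2, 194 without IFN-γ + EZH2i replicate 2 and 242 without IFN-γ + EZH2i replicate 3. With the replicate number as a block, since same-numbered libraries deviated together, 2084 genes were higher and 1577 lower.

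**Figure D1:**
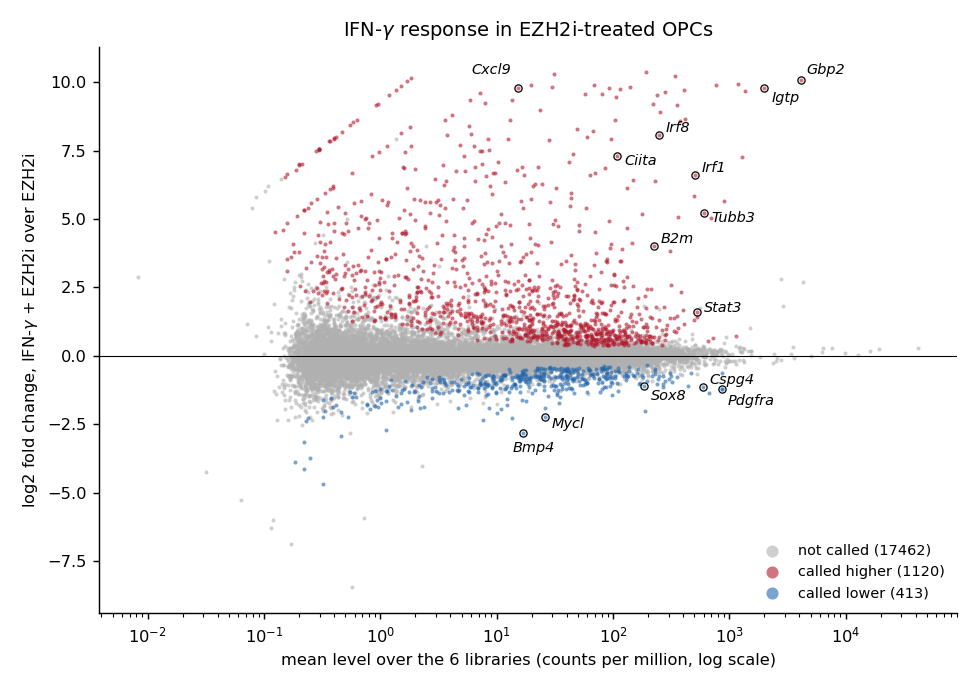
Each point is 1 of the 18995 genes tested, with its mean level over the 6 libraries (x axis, CPM, log scale) and its log2 fold change, IFN-γ + EZH2i over EZH2i (y axis). Genes called higher (1120) reach a log2 fold change of 10.36, while most genes called lower (413) stay within a few log2 units of 0, and points on a slanted line at the left are genes at 0 in every EZH2i library.

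By the rule of largest fitted rises, Gbp10, BC023105, Tgtp1, Gm49730, Gbp2 and Olfr753-ps1 led. Gbp2, a guanylate-binding protein that coats pathogen vacuoles, was at 8.44, 6.74 and 7.64 CPM in EZH2i and at 7695, 8614 and 8506 CPM in IFN-γ + EZH2i. The groups lay about 3 orders of magnitude apart, a 1088-fold rise (log2 10.09 ± 0.22 SE, edgeR adjusted p = 1.63e-10). Per length it was also the most abundant transcript among the genes that rose, at 2493 TPM in IFN-γ + EZH2i against 2.65 TPM in EZH2i. Next in level came the immunity-related GTPases Igtp at 1539 TPM, Irgm1 at 904 TPM and Iigp1 at 643 TPM, and Gbp6 at 608 TPM. These 5 genes together held 1.91% ± 0.29 of all counts in IFN-γ + EZH2i. Gbp10 went from 0.322, 0.192 and 0.334 CPM to 321, 379.8 and 443 CPM (log2 10.36 ± 0.31), and Tgtp1 from 0.572, 0.548 and 0.592 CPM to 530.3, 744 and 776 CPM (log2 10.21 ± 0.27). Both belong to families of close copies, in which reads could be split between members: Gbp10 and Gbp6 overlap Gm43302 on the same strand, and Tgtp1 has the near-identical Tgtp2 and overlaps Gm12185. The other leading rises were of poorly described genes. BC023105 was at 0.0715, 0.0274 and 0.0455 CPM, at most 3 counts per library, and reached 40.8, 57.6 and 88.3 CPM. Gm49730, listed at 0 in all 3 EZH2i libraries and at 2.48, 3.86 and 4.57 CPM with IFN-γ, lies within Parp14 on the same strand, so its reads cannot be separated with certainty from those of Parp14. Olfr753-ps1, an olfactory receptor pseudogene, was at 0 in EZH2i and at 3.80, 2.49 and 3.78 CPM, and overlaps Gm7031 on the other strand, which also rose.

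The components of the pathway itself rose in part. Of 11 tested receptor, kinase and STAT genes, 6 rose and none fell (median log2 0.45, against 0.00 for all genes tested). Of all genes, 5.90% rose and 2.17% fell. Stat2, a STAT of the type I interferon complex, rose 15.3-fold from 12.5, 11.2 and 10.7 CPM to 199, 173 and 156 CPM. Jak2 rose 2.49-fold and Jak1 1.85-fold, and Stat3, shared with other cytokines, 3.01-fold, from 259, 274 and 247 CPM to 797, 821 and 733 CPM. Tyk2, Stat5a, Stat6 and both receptor chains were not called. Ifngr1 was at 26.1, 30.0 and 28.7 CPM in EZH2i and at 20.9, 27.7 and 29.4 CPM with IFN-γ, overlapping ranges. Ifngr2 was at 27.3, 30.3 and 23.3 CPM against 25.2, 21.3 and 14.5 CPM, and passed with the replicate block over the 12 libraries but not over the 6 of the comparison (edgeR adjusted p = 0.423 without the block, and 0.0134 and 0.0511 with it).

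Feedback inhibitors of JAK-STAT signalling rose at 4 of 9 tested (median log2 0.35), against 5.90% of all genes. Socs1, which blocks JAK kinases and whose promoter ISREs are printed above, was nearly silent in EZH2i at 1.89, 1.23 and 0.880 CPM and was at 155, 114 and 109 CPM with IFN-γ. That is a 94.2-fold rise (log2 6.61 ± 0.28, edgeR adjusted p = 1.04e-08) with wide separation of the groups. Socs2 rose 13.7-fold, Socs3 3.81-fold and Cish 3.57-fold. The other 5, phosphatases and the SUMO ligase gene Pias1, did not pass.

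Interferon regulatory factors rose at 6 of 9 tested, against 5.90% of all genes, with a median log2 fold change of 2.76. Irf1, a first-wave factor and the activator of many antigen-presentation genes, was at 10.6, 9.89 and 10.2 CPM in EZH2i and at 850.1, 1113 and 1016 CPM with IFN-γ. The values within each group lay close together and the groups were far apart (97.1-fold, log2 6.60 ± 0.16, edgeR adjusted p = 2.22e-10). Irf8, best known as a myeloid factor, went from 2.50, 1.62 and 1.46 CPM to 526, 512 and 442 CPM, a 265-fold rise. Microglial markers summed to under 1 TPM in these cultures, and which cells carried Irf8 was not tested. Irf9 rose 13.6-fold, Irf7 6.77-fold and Irf2 2.78-fold, Irf2 not being called with length-scaled TPM (edgeR adjusted p = 0.0619). In the NF-κB list 2 of 12 rose and 1 fell (median log2 0.07), where 5.90% of all genes rose and 2.17% fell. The 2 were inhibitors or modulators, Tnfaip3 (A20), up 19.8-fold from 2.25, 1.48 and 1.88 CPM to 35.3, 40.1 and 35.7 CPM, and Bcl3, at 0.250, 0.0274 and 0.228 CPM in EZH2i and at 8.76, 2.40 and 2.86 CPM with IFN-γ (log2 4.74, and 3.90 without IFN-γ + EZH2i replicate 1). Relb, a subunit of the alternative pathway, fell from 7.18, 8.80 and 6.74 CPM to 4.53, 5.35 and 4.47 CPM (log2 -0.66 ± 0.17, edgeR adjusted p = 0.0320), a call that was lost on leaving out IFN-γ replicate 2 or any of the 6 libraries but EZH2i replicate 3 (edgeR adjusted p up to 0.162, without EZH2i replicate 2). Nfkb1 was at 42.7, 36.8 and 35.8 CPM against 46.2, 45.0 and 43.8 CPM and was not called.

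Cell-autonomous defence genes rose at every tested member of 4 lists. All 10 tested guanylate-binding proteins rose (median log2 8.53, or 8.24 at the bound), as did all 14 tested immunity-related GTPases (median 9.70), all 15 tested IFIT, OAS and MX genes (median 5.39, or 5.03 at the bound) and all 10 tested genes for ISG15 and its ligases (median 4.90), against 5.90% of all genes. The lists held 11, 14, 17 and 10 genes. Members near 0 in EZH2i were tested only because the IFN-γ libraries took them past the filter, and with at least 10 counts in every library 5, 8, 4 and 5 members were called. Igtp was at 5.36, 3.86 and 4.30 CPM in EZH2i and at 3033, 4648 and 4264 CPM with IFN-γ, an 883-fold rise. Irgm1, a regulator of the other immunity-related GTPases, started higher, at 14.7, 13.6 and 21.8 CPM, and reached 1849, 2674 and 3139 CPM (153-fold). Igtp and Irgm2 overlap on the same strand, and Irgm2 rose 578-fold. The guanylate-binding protein with the smallest rise was Gbp3, which was already at 14.9, 13.5 and 22.6 CPM and rose 57.8-fold. Ifit1, which binds foreign RNA caps, went from 0.608, 0.411 and 0.592 CPM to 93.7, 84.2 and 91.6 CPM (167-fold). Isg15, the ubiquitin-like modifier, stayed a rarer transcript: at 0.0357, 0.0274 and 0.0911 CPM in EZH2i and 12.6 ± 1.48 CPM (SD, n = 3) with IFN-γ (log2 7.65, and 8.51 without EZH2i replicate 3).

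Further antiviral lists showed the same direction with smaller medians. Restriction factors rose at 9 of 10 (median log2 2.93), with Bst2 (tetherin) going from 1.04, 0.384 and 0.501 CPM to 27.5, 36.7 and 30.1 CPM. PARPs rose at 8 of 9 (median 4.68), with Parp14 up 412-fold to 621, 885 and 956 CPM. Nucleic acid sensors and Toll-like receptors rose at 14 of 16 (median 3.03), against 5.90% of all genes. With at least 10 counts in every library, 5 restriction factors and 8 sensors and receptors were called, of 14 and 19 listed. Nod1, a sensor of bacterial cell wall, was at 1.68, 1.56 and 0.987 CPM and rose to 86.0, 83.8 and 87.9 CPM, with little spread within either group. Rnf213, a giant ubiquitin ligase, rose 32.6-fold to 1172, 1426 and 1458 CPM.

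**Figure D2:**
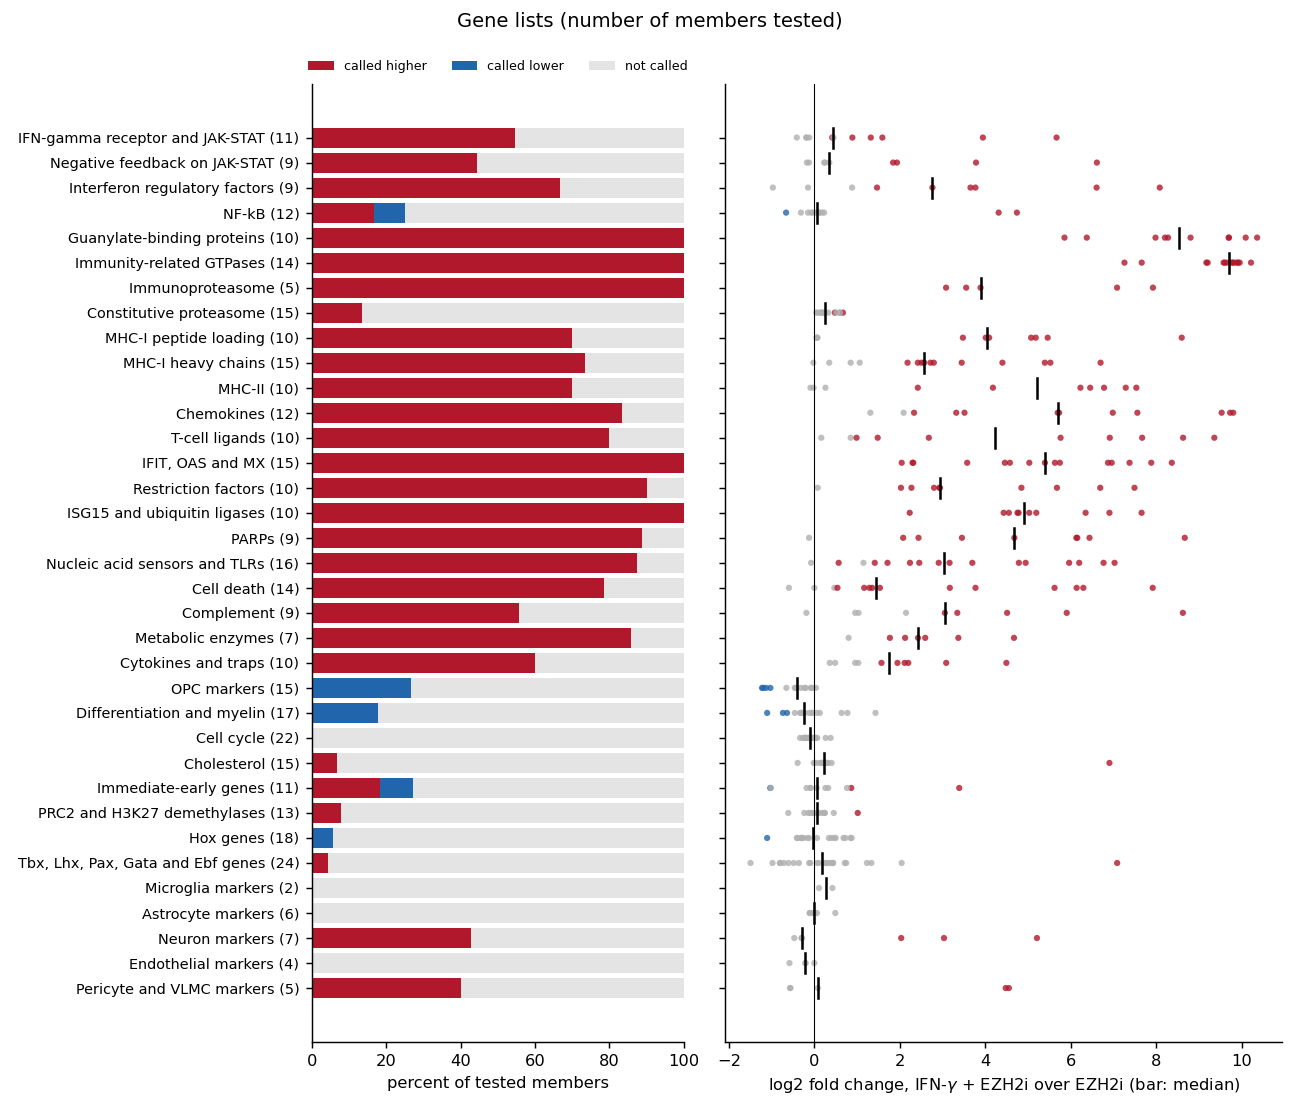
For each gene list (number of members tested in brackets), the left panel gives the percent of tested members called higher, called lower or not called, and the right panel gives each tested member's log2 fold change, IFN-γ + EZH2i over EZH2i, with the list median as a bar. The defence families are called higher at every tested member, whereas the cell cycle list has none called in either direction.

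Antigen processing genes for proteolysis, peptide transport and presentation rose. The immunoproteasome subunits and the PA28 activator rose at 5 of 5 (median log2 3.89), and 3 were called with at least 10 counts in every library. Psmb8, the catalytic subunit LMP7, was at 0.822, 0.630 and 0.880 CPM in EZH2i and at 163, 223 and 187 CPM with IFN-γ, a 245-fold rise (log2 7.92 ± 0.21, edgeR adjusted p = 2.40e-10). Psmb9 rose 136-fold, Psmb10 14.8-fold and Psme1 11.7-fold. Their constitutive counterparts rose far less. All 15 constitutive proteasome genes had a log2 fold change above 0, from 0.04 to 0.67 (median 0.25). Of these, 2 were called higher, Psma5 (1.59-fold) and Psma4 (1.39-fold), where 5.90% of all genes were. Both calls rested on single libraries: without EZH2i replicate 1, for example, the edgeR adjusted p was 0.163 for Psma5 and 0.153 for Psma4. On leaving out any library but IFN-γ replicate 1 or IFN-γ + EZH2i replicate 1, 0 or 1 of the list were called higher. With the replicate block 7 of the 15 were called higher. Psmb5, the constitutive subunit that PSMB8 replaces, was at 68.6, 87.1 and 65.8 CPM against 62.9, 100.3 and 85.5 CPM, and Psmb6 at 131, 130.3 and 120.3 CPM against 135, 141 and 139.8 CPM. Per length, Psmb8 at 153 TPM then stood above Psmb5 at 83.7 TPM in IFN-γ + EZH2i, where in EZH2i it stood at 0.548 TPM against 86.6 TPM.

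MHC class I loading genes rose at 7 of 10 (median log2 4.05). Nlrc5, the transactivator of MHC class I, went from 1.82, 1.84 and 2.13 CPM to 713, 814 and 722 CPM (389-fold, edgeR adjusted p = 2.22e-10). The peptide transporter gene Tap1 was at 23.6, 25.8 and 13.7 CPM in EZH2i and at 638, 818 and 659.8 CPM with IFN-γ (33.5-fold), and Tap2 rose 36.1-fold and Tapbp 17.0-fold. B2m, the light chain, was at 37.1, 20.9 and 20.8 CPM and rose to 618, 315 and 331 CPM, with replicate 1 the highest in both groups. The 3 that did not pass were general chaperones of the endoplasmic reticulum, among them Calr at 643, 622 and 563 CPM against 627, 659 and 607 CPM. Heavy chains rose at 11 of 15 tested, of 20 listed (median 2.57), against 5.90% of all genes, and 6 were called with at least 10 counts in every library. The classical H2-K1 was at 33.5, 34.1 and 28.2 CPM and rose 6.57-fold to 218, 242 and 169 CPM, and H2-D1 rose 5.93-fold. Non-classical H2-T23 (Qa-1) rose 107-fold, from 0.965, 1.23 and 1.68 CPM to 123, 137 and 155 CPM. H2-Q6 reached 6.88, 8.05 and 4.32 CPM and H2-Q7 32.4, 33.8 and 20.4 CPM, from 0.286, 0.274 and 0.334 CPM and 2.29, 3.40 and 2.26 CPM, but these genes are near copies of each other and their split of reads is uncertain.

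The MHC class II genes rose at 7 of 10 tested, of 15 listed (median log2 5.20), against 5.90% of all genes. With at least 10 counts in every library, 3 were called. Per length, the summed level of the list, its regulators included, was 44.0 to 62.5 TPM in EZH2i and 149 to 223 TPM with IFN-γ, against 58.1 to 76.9 TPM and 371 to 503 TPM for the class I heavy chains. Ciita, the master regulator of class II, was at 1.22, 1.07 and 1.75 CPM in EZH2i and at 193, 234 and 216 CPM with IFN-γ, a 159-fold rise (log2 7.28 ± 0.31, edgeR adjusted p = 1.10e-08). Its target H2-Aa was at 0.179, 0.0822 and 0.0455 CPM and rose to 15.8, 19.3 and 15.9 CPM, H2-Eb1 from 0.393, 0.274 and 0.182 CPM to 26.5, 39.7 and 22.1 CPM, and H2-Ab1 from 4.93, 2.25 and 2.23 CPM to 64.8, 59.7 and 43.1 CPM. The invariant chain Cd74 went from 0.107, 0.0274 and 0.121 CPM to 10.4, 6.38 and 3.98 CPM. Per length in IFN-γ + EZH2i, H2-Ab1 stood at 43.3 TPM, H2-Eb1 at 24.6 TPM, H2-Aa at 11.4 TPM and Cd74 at 4.87 TPM, while H2-K1 stood at 207 TPM and B2m at 452 TPM. Rfx5, part of the constitutive complex on class II promoters, was at 51.9, 46.8 and 32.9 CPM against 50.9, 58.4 and 47.9 CPM and was not called. Transcript estimates placed Ciita mainly on Ciita-201, which starts at position 10488279 of chromosome 16 and stood at 15.6, 19.7 and 13.8 TPM with IFN-γ. Ciita-203, from the start at 10489781, stood at 8.74, 12.3 and 12.2 TPM, while the annotated coding transcripts that start upstream at 10480059 and 10480164 stayed at or under 0.117 TPM in all 6 libraries. From the same upstream region, the retained-intron transcript Ciita-207 (start 10480151) went from 0.0391, 0.0511 and 0.0629 TPM to 1.93, 1.57 and 0.989 TPM.

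Of 17 chemokine genes 12 were tested and 10 rose, against 5.90% of all genes (median log2 5.71, or 3.41 at the bound, which 4 of the tested genes needed). Those 4 had at most 3 counts in each EZH2i library, so libraries of other groups took them past the filter. With at least 10 counts in every library, 2 chemokine genes were called. Cxcl10, a ligand of CXCR3 on T cells, was at 0.608, 0.356 and 0.880 CPM in EZH2i and at 318, 427 and 680.4 CPM with IFN-γ, a 773-fold rise with a spread of about 2-fold among the treated libraries. Cxcl9, another CXCR3 ligand, was at 0.0357, 0.0274 and 0.0304 CPM, at most 3 counts per library, and at 34.1, 24.8 and 31.6 CPM with IFN-γ (edgeR adjusted p = 1.87e-08). Cxcl11 had no counts in any EZH2i library and 2.14, 3.40 and 2.63 CPM with IFN-γ, which against a floor of 3 counts per library is at least 34.8-fold higher. Cx3cl1 was the exception in its starting level, at 151, 116 and 115 CPM, and rose 5.03-fold to 822, 645 and 458 CPM. Ccl2, a monocyte attractant, varied widely: 1.50, 0.466 and 0.379 CPM became 64.5, 9.30 and 42.1 CPM (log2 5.73 ± 0.84, edgeR adjusted p = 0.000777), with log2 6.52 without EZH2i replicate 1 and 5.12 without IFN-γ + EZH2i replicate 1.

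Ligands that T cells read rose at 8 of 10 tested, of 13 listed (median log2 4.22, or 3.76 at the bound), against 5.90% of all genes. With at least 10 counts in every library, 3 were called. Cd274 (PD-L1) was at 0.679, 0.411 and 0.501 CPM in EZH2i and at 199.6, 185 and 234 CPM with IFN-γ, a 389-fold rise, and the adhesion molecule Icam1 rose 54.5-fold to 76.6, 102 and 79.5 CPM. Tnfsf10 (TRAIL) was at 0, 0 and 0.0304 CPM in EZH2i and reached 11.9 ± 3.62 CPM (SD, n = 3). Vcam1 was at 16.5, 23.6 and 34.1 CPM against 32.7, 44.9 and 56.3 CPM, higher at each replicate number yet overlapping between groups, and passed only with the replicate block (edgeR adjusted p = 0.229 without and 1.41e-05 with it).

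Cell death genes rose at 11 of 14 (median log2 1.44), and complement genes at 5 of 9 tested, of 10 listed, against 5.90% of all genes. With at least 10 counts in every library, 6 and 3 were called. Mlkl, the executioner of necroptosis, went from 0.679, 0.575 and 0.410 CPM to 42.2, 40.1 and 44.3 CPM (76.1-fold). The complement list had a median of 3.05, with C4b at 6.90, 6.00 and 4.69 CPM in EZH2i and 140.4, 132 and 126 CPM with IFN-γ. Serping1, the C1 inhibitor, was at 26.8, 26.0 and 24.7 CPM with IFN-γ from at most 0.164 CPM. Metabolic enzymes rose at 6 of 7 tested, of 9 listed (median 2.42), among them the tryptophanyl-tRNA synthetase gene Wars (6.03-fold) and Nampt (5.37-fold). Cytokine genes and their traps rose at 6 of 10 tested, of 14 listed (median 1.76). Both counts stand against the same 5.90% of all genes. Csf1, a growth factor for microglia, was at 61.9, 60.3 and 62.3 CPM and rose to 294, 263 and 239 CPM (4.32-fold). Il33 was at 64.1, 31.0 and 31.5 CPM and reached 130.3, 115 and 129.8 CPM (edgeR adjusted p = 0.0347), and was not called without IFN-γ replicate 2 or without any of the 6 libraries but EZH2i replicate 1 (edgeR adjusted p up to 0.147, without EZH2i replicate 2).

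**Figure D3:**
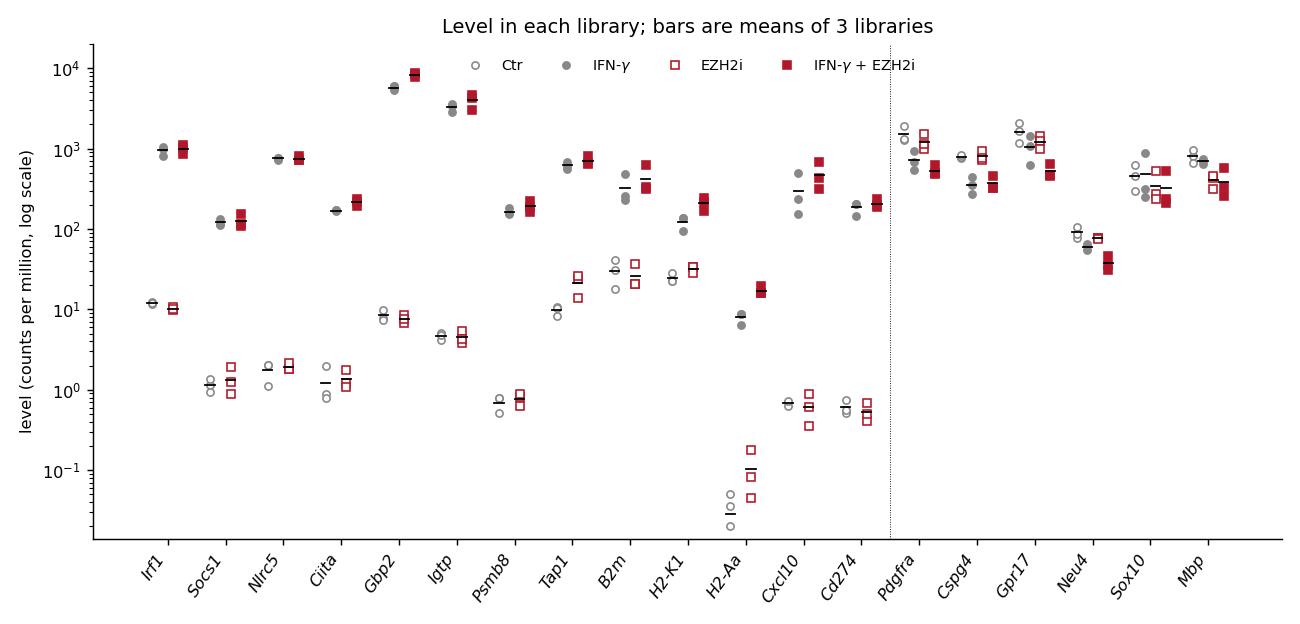
Level of selected genes in each of the 12 libraries (y axis, CPM, log scale, values under 0.02 drawn at 0.02), with open symbols for cultures without IFN-γ, filled symbols for cultures with it, grey circles without and red squares with EZH2i, and bars for means of 3 libraries. Irf1 to Cd274 lie far higher in the filled red squares than in the open ones, while Pdgfra, Cspg4, Gpr17 and Neu4 to the right of the dotted line lie lower and Sox10 and Mbp overlap.

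OPC identity genes fell in part. Of 15 OPC markers, 4 fell and none rose, where 2.17% of all genes fell (median log2 -0.41). With the replicate block 8 fell, where 8.30% of all genes did. Pdgfra, the receptor for the PDGF-AA in the medium, was at 975, 1144 and 1519 CPM in EZH2i and at 491, 480.3 and 616 CPM with IFN-γ (log2 -1.20 ± 0.24, edgeR adjusted p = 0.00755). Cspg4 (NG2) went from 935, 725 and 762 CPM to 460.2, 324 and 323 CPM (log2 -1.13 ± 0.20). In both genes every treated library lay below every untreated one, as in all 413 genes called lower. Gpr17, a receptor of precursors that are committed to differentiate, fell from 1431, 1232 and 991 CPM to 643, 454 and 467 CPM (log2 -1.22 ± 0.30, edgeR adjusted p = 0.0234), and lost its call on leaving out replicate 1 or 2 of EZH2i (edgeR adjusted p = 0.0832 and 0.0664) or replicate 2 or 3 of IFN-γ + EZH2i (0.103 and 0.0869). Neu4 fell from 77.7, 77.5 and 74.6 CPM to 31.3, 35.3 and 45.9 CPM. Ptprz1 was at 1864, 1803 and 1906 CPM against 2036, 1678 and 1697 CPM, and the lineage factor Sox10 at 525, 269 and 236 CPM against 526, 237 and 209 CPM, where the differences between replicate numbers were far larger than any between treatments. Olig2, at 341, 477 and 326 CPM against 269, 334 and 242 CPM, and Vcan, at 809, 473 and 661 CPM against 491, 311 and 432 CPM, passed only with the replicate block (edgeR adjusted p = 0.00889 and 4.19e-05). The summed level of the list was 2244 to 2464 TPM in EZH2i and 1394 to 1677 TPM in IFN-γ + EZH2i. Of 6 astrocyte markers 0 were called by edgeR, and 1 was higher with the replicate block (Gfap, edgeR adjusted p = 0.0184), with Slc1a3 at 737, 1021 and 1191 CPM against 665, 882 and 1190.3 CPM.

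Differentiation and myelin genes fell at 3 of 17 (median log2 -0.24), and the replicate block also called 1 higher (Nkx6-2, edgeR adjusted p = 0.199 without and 0.000369 with it). Sox8, a relative of SOX10 in the lineage, went from 297, 263 and 198 CPM to 144, 117 and 90.9 CPM (log2 -1.10 ± 0.27, edgeR adjusted p = 0.0237). It lost its call on leaving out replicate 1 or 2 of EZH2i (edgeR adjusted p = 0.0877 and 0.0742) or replicate 2 or 3 of IFN-γ + EZH2i (0.0836 and 0.0951). Itpr2 fell from 358, 316 and 331 CPM to 209, 169 and 225 CPM, and Ugt8a, which makes myelin galactolipids, from 213, 179.8 and 191 CPM to 121, 114 and 139.5 CPM. Without IFN-γ + EZH2i replicate 2, Ugt8a was not called (edgeR adjusted p = 0.0559) and 1 of the 17 fell. The structural myelin gene Mbp overlapped between groups, at 435, 457 and 312 CPM against 571, 329.6 and 257 CPM. None of the 22 cell cycle genes was called by edgeR at an adjusted p under 0.05 (median -0.10), where 8.07% of all genes were. Nor was any called with the replicate block, and the block over the 6 libraries alone called 1 higher and 2 lower. Of 15 cholesterol genes only Ch25h, the interferon-inducible enzyme that makes 25-hydroxycholesterol, rose in the fit without block, from 0.179, 0.110 and 0.0607 CPM to 7.73, 17.1 and 13.5 CPM (list median 0.23), and the block called 5 higher and 1 lower, while without IFN-γ + EZH2i replicate 1 the count was 2. Among 11 immediate-early genes, Atf3 (10.5-fold) and Jun (1.82-fold) rose and Fosb fell (log2 -1.03 ± 0.23), against 5.90% and 2.17% of all genes. Fosb was not called without EZH2i replicate 3 or IFN-γ + EZH2i replicate 2 (edgeR adjusted p = 0.0593 and 0.0659).

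Of the genes of the Polycomb machinery and its classical targets, few were called, where 5.90% of all genes rose and 2.17% fell. Ezh2, whose product the inhibitor blocks, was at 30.8, 44.4 and 43.7 CPM in EZH2i and at 35.1, 44.2 and 35.0 CPM with IFN-γ. Of 13 PRC2 and H3K27 demethylase genes, 1 rose: Aebp2, a PRC2 cofactor, from 45.5, 40.3 and 43.3 CPM to 110.1, 83.6 and 67.3 CPM (2.02-fold, edgeR adjusted p = 0.00618), and 2 rose without EZH2i replicate 1 or with the block, which also called 1 lower. Of 18 tested Hox genes (39 listed), 1 fell, a call lost on leaving out any of the 6 libraries or Ctr replicate 3. Among 24 tested Tbx, Lhx, Pax, Gata and Ebf genes (40 listed), 1 rose. This was Tbx21 (T-bet), a factor of T and NK cells that IFN-γ is known to induce. It was at 0.250, 0.192 and 0.0607 CPM in EZH2i and at 26.3, 18.1 and 17.0 CPM with IFN-γ. No T or NK cell marker passed the filter on low counts in these cultures, and which cells carried Tbx21 was not tested. The block called 5 of the 24 higher and 1 lower, and 2 were higher without Ctr replicate 2 or IFN-γ replicate 3.

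Among markers of other cells, 3 of 7 neuronal genes rose, where 5.90% of all genes did. Tubb3, the neuronal β-tubulin, was at 42.8, 22.4 and 30.6 CPM in EZH2i and at 1592, 1021 and 919.8 CPM with IFN-γ, a 36.9-fold rise (log2 5.21 ± 0.36, edgeR adjusted p = 1.06e-06). Syt1 was at 3.29, 2.74 and 2.91 CPM against 17.3, 10.0 and 9.29 CPM, and Stmn2 at 0.357, 0.849 and 0.607 CPM against 7.18, 4.83 and 3.08 CPM. The summed level of the list went from 27.8 to 46.4 TPM in EZH2i to 364 to 712 TPM in IFN-γ + EZH2i, nearly all of it Tubb3 at 498 TPM, and the list median was -0.29. Of 5 tested pericyte and VLMC markers (7 listed), Lum and Kcnj8 rose, against the same 5.90% of all genes. The sum of that list was 0.66 to 1.11 TPM in EZH2i and 1.31 to 1.92 TPM with IFN-γ. Kcnj8 was the higher of the pair at 1.84, 4.01 and 3.70 CPM. Neither the 2 tested microglial nor the 4 tested endothelial markers were called, and the endothelial sum was 3.71 to 6.78 TPM against 2.62 to 4.44 TPM. What part these cells had in any gene's change was not tested.

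By the rule of largest fitted falls, Bmp4, Gm26846, Tent5c, 2810459M11Rik, Mycl and Pnlip led. Bmp4, a secreted factor known to divert OPCs from differentiation, was at 41.5, 27.2 and 20.5 CPM in EZH2i and at 4.83, 4.28 and 3.50 CPM with IFN-γ (log2 -2.82 ± 0.42, edgeR adjusted p = 0.000884). Even its lowest EZH2i library stood well above the highest treated one. Mycl, a member of the MYC family, fell from 58.7, 38.7 and 30.6 CPM to 12.9, 7.90 and 6.76 CPM (log2 -2.22 ± 0.41). Pnlip, a lipase gene best known from pancreas, fell from 18.2, 15.6 and 14.6 CPM to 3.59, 3.46 and 4.35 CPM (log2 -2.08 ± 0.20, edgeR adjusted p = 2.34e-05). Tent5c, a poly(A) polymerase gene, was at 15.3, 7.56 and 15.2 CPM against 3.08, 1.64 and 2.76 CPM, and 2810459M11Rik at 22.5 ± 6.52 CPM (SD, n = 3) against 4.61 ± 0.372 CPM. The non-coding Gm26846 was low throughout, at 1.32, 1.34 and 3.17 CPM against 0.214, 0.274 and 0.398 CPM, and lies on the strand opposite Ephb1, which fell too (log2 -1.17).

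The same 6 h of IFN-γ in cultures without inhibitor gave a like number of calls, 1264 higher (6.65%) and 399 lower (2.10%), 8.75% of genes tested in all. Of the 1120 genes that rose with EZH2i, 1017 also rose without it, 90.8% of the former and 80.5% of the latter. Of the 413 that fell, 279 also fell without it, 67.6% and 69.9%. Another 237 genes were called with EZH2i and not without, but 0 genes passed the test of the difference itself (edgeR interaction, adjusted p under 0.05), where 127 had an unadjusted p under 0.05 and DESeq2 called 0 as well. Without EZH2i the sign was the same for 1119 of the 1120 and 410 of the 413. As a description, fold changes with and without EZH2i correlated across the 18995 genes at Pearson r = 0.877 and Spearman rho = 0.693, the points sharing one normalization. The smallest interaction p among called genes belonged to Cacng5, an AMPA receptor auxiliary subunit gene, which rose from 16.5, 15.0 and 16.1 CPM to 25.6, 22.7 and 20.3 CPM with EZH2i (log2 0.53) and by log2 1.37 without it, a difference of -0.84 (unadjusted p = 0.000773), and its own rise was not called on leaving out Ctr replicate 1 or any of the 6 libraries but IFN-γ + EZH2i replicate 3 (edgeR adjusted p up to 0.119). Apol9a followed, with fitted log2 fold changes of 7.30 with and 11.81 without EZH2i, the latter against 0 counts in all 3 Ctr libraries, so that it depends on the prior count. Then came the low-level Gm16551, Tex22 and Dhrs13os, none of which passed the adjustment, and whose own calls were each lost on leaving out single libraries (edgeR adjusted p up to 0.106, 0.124 and 0.111). Gpr17 fell with EZH2i (log2 -1.22) and was at log2 -0.64 without (edgeR adjusted p = 0.263), yet that difference was not called either (unadjusted p = 0.184).

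**Figure D4:**
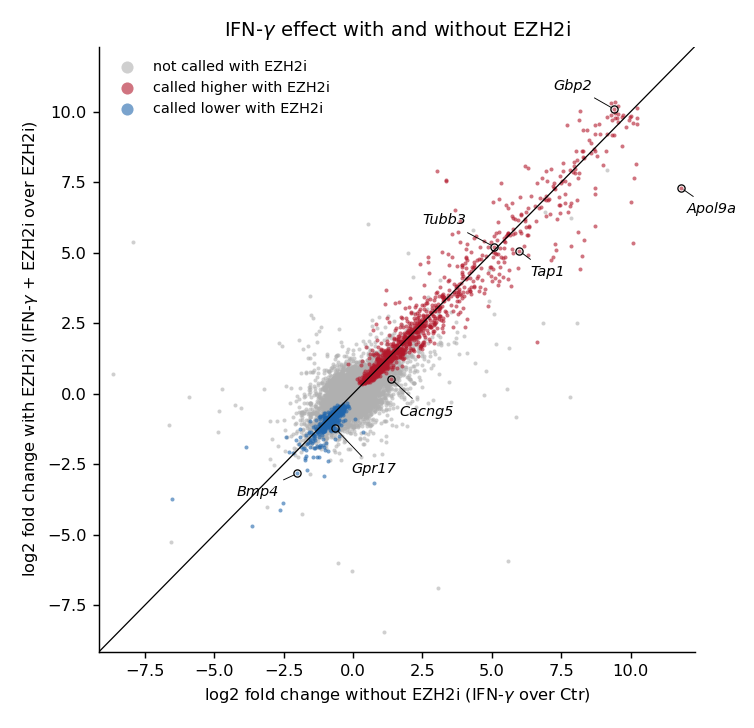
Log2 fold change of each tested gene in IFN-γ over Ctr (x axis) and in IFN-γ + EZH2i over EZH2i (y axis), with genes coloured by their call with EZH2i and the line of equal change drawn. Called genes lie along the line (r = 0.973 over 1533 genes, which were chosen by the values on the y axis), and Cacng5 and Apol9a sit below it.

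Promoter letters followed the size of the rise. Among genes that rose by a log2 fold change above 4, 148 of 248 matched the RefSeq table, and of their 173 windows 31.8% held an ISRE and 16.8% a GAS. For rises of log2 1 to 4 the shares were 10.1% and 11.9% of 546 windows, and for smaller rises 2.85% and 5.06% of 316 windows. Genes that fell had an ISRE in 1.46% and a GAS in 7.28% of 412 windows, and genes not called in 2.49% and 6.56% of 13838 windows. Over all 32851 windows of the table the shares were 3.44% for ISRE and 8.30% for GAS. These are matches of letters, and a single window of 300 bases cannot hold a gene's distal elements.

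**Figure D5:**
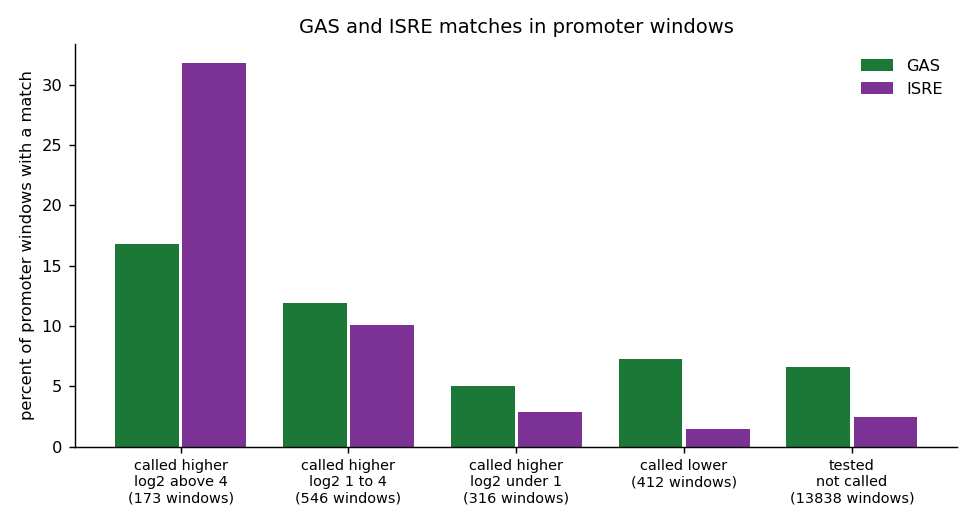
Percent of RefSeq promoter windows (250 bases before to 50 after a start) with at least 1 GAS or ISRE match on either strand, for genes grouped by their call and log2 fold change in IFN-γ + EZH2i over EZH2i. The ISRE share is 31.8% in the group with the largest rises and 2.49% among genes not called.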

How the data were processed

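The authors sequenced stranded total RNA from 12 cultures and deposited Salmon 0.8.2 tables per library, which hold an estimated count and a TPM for each of 141862 transcripts (mm10/GRCm38 per the labels, which also name STAR and DESeq2). Deposited tables of the authors' own comparisons were not used. Transcripts were matched to genes through GENCODE annotation, all of them, and the estimated counts summed over 55536 genes and rounded. Genes passing edgeR's filterByExpr (18995) were fitted with edgeR 4.0.16 (R 4.3.3, TMM factors, quasi-likelihood test, group as the only term, all 12 libraries together), with Benjamini-Hochberg adjustment and a threshold of 0.05. CPM were computed on TMM-scaled totals. The design was tested on simulated data. Replicates came from different litters per the labels, and the deviations of same-numbered EZH2i and IFN-γ + EZH2i libraries from their group means correlated at 0.530, 0.496 and 0.621, so a block on the replicate number was fitted as an alternative. Other alternatives were DESeq2 1.42.0, RLE factors, other filters, length-scaled TPM, the 6 libraries alone and leaving out each library. Genes named were those the study names for this experiment, the 6 largest rises and falls at 1 CPM or more, members of 36 gene lists by position, size of change and level, the 5 smallest interaction p and the 5 highest TPM. The members and lists were chosen with earlier results of these data known. Between replicates of a group the chi-square per gene was 35.6 to 190.2, well above sampling noise, so no library was counted as a repeat of another. Some genes are not reported here.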

Additional observations from a re-analysis of the deposited data

How the results depend on the processing

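The counts of called genes depended on whether replicate numbers were blocked and, for falling genes, on single libraries. With the replicate block, 3661 genes were called with EZH2i (2084 higher, 1577 lower) and 4032 without it (2360 and 1672). In the 6 libraries of each comparison alone, the block gave 3360 (1932 and 1428) with EZH2i and 3003 without it (1177 lower), and no block gave 264 and 227 lower. DESeq2 called 726 and 685 lower. An added limit of 2-fold left 1.0e+03 genes with EZH2i, 828 higher and 175 lower, and 1052 (162 lower) without it. Leaving out each library in turn gave 194 to 452 lower genes with EZH2i and 172 to 442 without it, against 851 to 1132 and 897 to 1268 higher. The cause of these differences was not tested. The interaction had 0 genes called in every setting run, and 545 at an unadjusted p under 0.05 with the block. Same-numbered Ctr and IFN-γ libraries correlated at 0.490, 0.0854 and 0.544, weakly for replicate 2. The main fit did not pair them, while the block counts without EZH2i given above grouped them by replicate number. Among named genes, each called gene kept its direction in every setting, but 16 of 113 lost their call in at least 1 setting. Lost calls numbered 5 with length-scaled TPM, 5 with the 6 libraries without block, 4 without the filter on low counts and 8 with the 2-fold limit. The block in the 6 libraries alone lost 1 (Dhrs13os). The block raised Ifngr2, Vcam1, Olig2, Vcan, Gfap, Nkx6-2, Tuba8 and Tubb6 to calls, Tuba8 also being called by DESeq2. The filter of 10 counts in every library removed low members of the immune lists, so fewer were tested.

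Several genes that were not called had fold changes whose sign turned. Over single libraries left out, the log2 fold change ran from -0.0035 to 0.092 for Calr, -0.21 to 0.032 for Ezh2, -0.079 to 0.98 for Gfap, -0.47 to 0.16 for Mbp, -0.16 to 0.0068 for Ptprz1, -0.36 to 0.058 for Slc1a3 and -0.64 to 0.36 for Sox10. It was 0.022 for Mbp with length-scaled TPM.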

Other observations

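The genes given here fell in IFN-γ + EZH2i, were in no list above, and were chosen after their values were seen, so they do not stand for any group. Jag1, a Notch ligand, was at 149, 163 and 156 CPM in EZH2i and at 72.1, 61.0 and 57.8 CPM with IFN-γ (log2 -1.29 ± 0.13, edgeR adjusted p = 3.50e-05), and Nrarp, a feedback target of Notch, fell from 35.4, 37.2 and 35.4 CPM to 17.1, 14.0 and 14.1 CPM. Bmp7, a relative of Bmp4, went from 125, 105 and 98.2 CPM to 54.7, 41.2 and 36.7 CPM (log2 -1.31 ± 0.20). Wnt7a, a ligand through which OPCs are known to act on vessels, fell from 53.0, 53.8 and 47.3 CPM to 19.4, 22.4 and 13.1 CPM (log2 -1.49 ± 0.21). In each of these genes the groups did not overlap, as in all 413 genes called lower and in 21.5% of all genes tested. Xylt1, an enzyme that starts chondroitin sulphate chains, fell from 266, 282 and 349 CPM to 89.4, 61.0 and 72.5 CPM (log2 -2.01 ± 0.22, edgeR adjusted p = 6.11e-05) and Csgalnact1, an enzyme of chondroitin sulphate synthesis, from 23.9, 27.1 and 23.9 CPM to 6.79, 9.33 and 8.37 CPM. Mmp15, a membrane metalloproteinase, fell from 1103, 909 and 869 CPM to 467, 320.2 and 351 CPM.

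Tubb3 had the largest rise among the tubulins. Of 15 α- and β-tubulin genes 12 were tested, 1 was called, and the other 11 had log2 fold changes from -0.22 to 1.37. With the replicate block Tuba8, the highest of those 11, and Tubb6 were called too (edgeR adjusted p = 0.000175 and 0.00805, against 0.0780 and 0.615 without it). The Tubb3 transcript Tubb3-201 held nearly all of the signal, at 20.9, 11.1 and 14.4 TPM in EZH2i and 687, 452.5 and 351.9 TPM with IFN-γ. The neighbouring Mc1r ends 680 bases before Tubb3 starts and rose too, to 3.46, 1.91 and 1.99 CPM (log2 3.73).

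Genes rose on every autosome, from 3.35% of tested genes on chromosome 7 to 8.03% on chromosome 17. The stretches of 1 Mb given here were chosen for their number of rising genes, and no test of clustering was made. Of 46 tested genes that start between 34000001 and 35000000 on chromosome 17, 13 rose, among them Psmb9, Tap1, Psmb8, H2-Aa and C4b. On chromosome 19, 9 of 15 rose between 34000001 and 35000000, where the Ifit genes, Fas and Ch25h lie. Between 105000001 and 106000000 on chromosome 5, 8 of 14 rose, 7 of them guanylate-binding protein genes or Gm43302. Between 173000001 and 174000000 on chromosome 1, 7 of 10 rose, all of the Ifi200 family. Members of these families share sequence, so the split of reads among them is uncertain.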
